A study of Mus musculus with 32 samples.

Results

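The 8 genes described here encode utrophin (Utrn), dystrophin (Dmd) and 6 proteins of the complex that both of them anchor, namely dystroglycan (Dag1), beta-1-syntrophin (Sntb1), beta-2-syntrophin (Sntb2), alpha-dystrobrevin (Dtna), beta-dystrobrevin (Dtnb) and alpha-sarcoglycan (Sgca). They were taken by symbol from a list, each symbol matched 1 gene, and they make up 8 of the 24952 genes in the tables. All 8 passed the filter on low counts (1 CPM, the gene's reads scaled by the total of its library, reached in 8 or more libraries), as did 13990 genes in all. The RNA came from the tibialis anterior (TA), a fast muscle of the lower hindlimb, of male wild type C57BL/6JRj mice. Muscle sections were stained with fluorescent α-bungarotoxin, a toxin that binds acetylcholine receptors, and a laser cut out either synaptic regions (NMJ) or extra-synaptic regions (xNMJ). The 4 groups of 8 libraries were 10m xNMJ and 10m NMJ, from mice of 10 months that had been on an AIN93M diet for 2 to 3 months, and 30m xNMJ and 30m NMJ, from mice of 30 months that had been on it for 16 months. All mice lived in single cages, and effects of age and of time on the diet cannot be told apart. Libraries held 4026648 to 16516788 counted reads, with 4026648 to 10258988 in 10m xNMJ, 7080227 to 16516788 in 10m NMJ, 4424672 to 13182475 in 30m xNMJ and 6703228 to 16422527 in 30m NMJ. The labels name no animals, so the p-values below measure only the spread between these libraries. They would be too small if libraries of the same group shared a mouse, and whether NMJ and xNMJ libraries share mice is not given.

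Dystrophin and utrophin are large, related cytoskeletal proteins that tie the actin network under the muscle membrane to dystroglycan, a receptor for laminin in the basal lamina. In a mature fibre, dystrophin protein lines the whole membrane, whereas utrophin protein is concentrated at the neuromuscular junction, on the crests of the junctional folds where acetylcholine receptors sit. Sarcoglycans brace dystroglycan within the membrane, while dystrobrevins and syntrophins bind to the inner face and hold signaling enzymes and channels. Loss of dystrophin causes Duchenne muscular dystrophy, and raising utrophin along the fibre has been pursued as a way to replace it.

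On GRCm38 with GENCODE M21 annotation, the genes lie on different chromosomes. Utrn (ENSMUSG00000019820) spans chromosome 10, 12382188 to 12869365, minus strand. Dmd (ENSMUSG00000045103) spans chromosome X, 82948870 to 85206141, plus strand, which is 2257272 bases. Dag1 (ENSMUSG00000039952) lies on chromosome 9, 108204634 to 108263958, minus strand. Sntb1 (ENSMUSG00000060429) lies on chromosome 15, 55636388 to 55906949, minus strand. Dtnb (ENSMUSG00000071454) lies on chromosome 12, 3572381 to 3781796, plus strand. Sgca (ENSMUSG00000001508) is the shortest, at chromosome 11, 94962791 to 94976327, minus strand.

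The 250-base stretches just before a transcription start are shown for 4 starts, because Dmd and Dag1 went in opposite directions between the regions, Sgca is the sarcolemmal gene that did not pass the test, and the second Dmd start belongs to a short product that is counted in the same gene. They come from RefSeq on GRCm38.p6, run 5′ to 3′ on the gene's strand, and carry each E-box (CANNTG, the letters bound by myogenic factors of the MyoD family) in capitals.
Dmd, first start, chrX:82948620-82948869, plus strand: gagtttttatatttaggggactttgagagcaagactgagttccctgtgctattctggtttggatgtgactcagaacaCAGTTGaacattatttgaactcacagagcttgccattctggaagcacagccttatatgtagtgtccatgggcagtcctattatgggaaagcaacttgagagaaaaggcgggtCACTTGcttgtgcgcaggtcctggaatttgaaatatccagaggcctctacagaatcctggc
Dmd, second start, chrX:85048045-85048294, plus strand: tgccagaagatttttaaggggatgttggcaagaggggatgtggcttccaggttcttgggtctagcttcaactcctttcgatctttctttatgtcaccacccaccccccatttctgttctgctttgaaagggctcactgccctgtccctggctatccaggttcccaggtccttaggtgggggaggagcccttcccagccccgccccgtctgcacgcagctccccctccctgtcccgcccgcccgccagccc
Dag1, chr9:108263959-108264208, minus strand: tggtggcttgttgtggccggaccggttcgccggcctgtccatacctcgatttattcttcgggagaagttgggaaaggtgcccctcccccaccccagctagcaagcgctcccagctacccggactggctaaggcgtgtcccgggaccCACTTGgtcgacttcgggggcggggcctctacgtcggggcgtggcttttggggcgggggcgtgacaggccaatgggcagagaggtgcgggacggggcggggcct
Sgca, chr11:94976328-94976577, minus strand: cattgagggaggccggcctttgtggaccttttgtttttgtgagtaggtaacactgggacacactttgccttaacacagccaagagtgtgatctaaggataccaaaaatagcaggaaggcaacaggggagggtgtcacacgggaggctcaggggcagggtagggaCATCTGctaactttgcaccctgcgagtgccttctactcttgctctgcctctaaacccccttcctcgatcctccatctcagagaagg
The first Dmd stretch holds 2 E-boxes, whose first bases lie 173 and 61 bases before the start, and the second holds none. The second start falls in intron 62 of the long Dmd transcript, which has 79 exons, so reads from both starts meet in the shared last exons. Dag1 holds 1 E-box at 104 bases and Sgca 1 at 86 bases before the start. An N-box (CCGGAA on either strand), the letters known from synapse-specific promoters, is in none of the 4. Of all 32851 RefSeq stretches of 250 bases, 66.2% hold an E-box and 12.0% an N-box. RefSeq stretches were at hand for 5 of the 8 members. The one for Utrn is not shown, since the models of GENCODE M21 differ there: its start (12861735) is the start of 1 of the 8 coding models, the longest (12382 bases, 74 exons), but the first base of a later exon in 2 others, where the stretch before it is intron. These letters are a description of the windows and were tied to no measurement.

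The region labels were checked against marker genes before the members were read. All 10 postsynaptic markers (among them the receptor subunits Chrna1, Chrnd and Chrne) were higher in NMJ than in xNMJ at both ages; since receptor staining chose the regions, this checks the labels and is no finding. Their summed level ran from 2990 to 5540 CPM in 10m NMJ and from 4010 to 6270 CPM in 30m NMJ, against 75.1 to 206 CPM in 10m xNMJ. In 30m xNMJ, 7 libraries reached at most 135 CPM and replicate 5 reached 1210 CPM, so this library labelled extra-synaptic stands apart from its group. For named genes, the 30-month region differences and the ratios that involve it are therefore also given without it, while list counts and medians and ranges of levels include it. Muscle fibre markers (8 genes, with Tnnt3 the most abundant) summed to a median of 120000 CPM in xNMJ against 80300 CPM in NMJ at 10 months, and to 130000 CPM against 73800 CPM at 30 months; 4 of 8 and 5 of 8 were lower in NMJ. Markers of other cells moved with the region. All 7 Schwann cell markers were higher in NMJ at both ages, with sums at 10 months of 10.8 to 39.5 CPM (xNMJ) against 341 to 462 CPM (NMJ), and at 30 months of 8.88 to 66.3 CPM (xNMJ) against 302 to 410 CPM (NMJ). The highest 30m xNMJ value was again that of replicate 5. Their most abundant gene in NMJ was Ncam1, which denervated and synaptic muscle also expresses, and Sox10 and Kcna1 in 10m xNMJ, and S100b and Kcna1 in 30m xNMJ, had a median count of 0. Of 5 fibroblast markers, 4 were higher in NMJ at both ages, led by Dcn, and their sums at 10 months were 112 to 343 CPM (xNMJ) against 856 to 1350 CPM (NMJ), and at 30 months 88.5 to 285 CPM (xNMJ) against 811 to 1490 CPM (NMJ). Of 5 macrophage markers, 3 were higher in NMJ at 10 months and 2 at 30 months, with summed medians of 12.9 and 10.8 CPM (xNMJ) against 64.5 and 60.5 CPM (NMJ). Of 4 endothelial markers none was higher and 1 was lower at 30 months, of 5 smooth muscle and pericyte markers 1 was higher at each age and 1 lower at 30 months, and none of 3 satellite cell markers was called. The part of these cells in the differences below was not tested, and in pooled regions more cells of a type cannot be told apart from more RNA per cell.

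**Figure D1:**
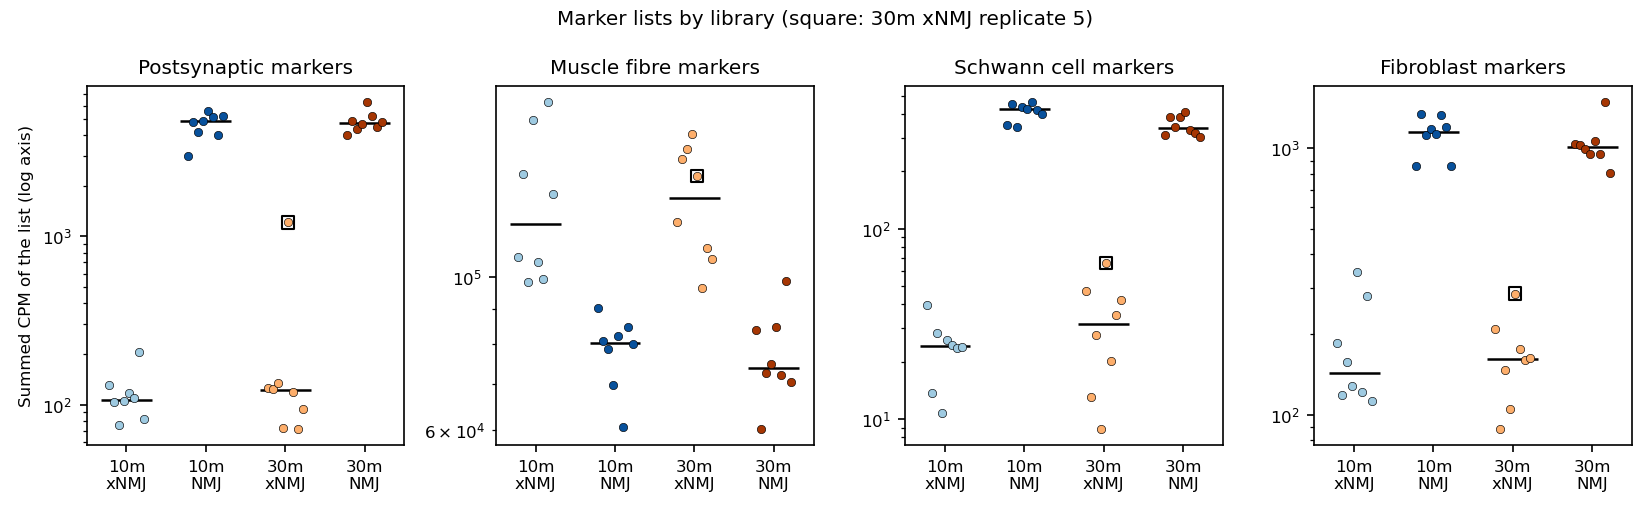
Summed CPM (log axis) of the postsynaptic, muscle fibre, Schwann cell and fibroblast marker lists in each of the 32 libraries (points), with the median of each group of 8 (line) and a square around 30m xNMJ replicate 5. That library lies at 1210 CPM for postsynaptic markers, between the other 30m xNMJ libraries (at most 135 CPM) and the 30m NMJ libraries (at least 4010 CPM).

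To ask how the synaptic and sarcolemmal members divide between the regions, NMJ was compared with xNMJ at each age. At 10 months, 5 of the 8 members were called (11.5% of all 13990 genes tested were), of which 4 were higher in NMJ (Utrn, Sntb2, Dag1 and Sntb1) and 1 was lower (Dmd), whereas 6.5% and 5.05% of all genes were higher and lower. Of these, Sntb1 passed the filter on low counts only through 10m NMJ, the group where it was high, so its call adds no separate support. At 30 months 5 were again called (9.26% of all genes were), of which 4 were higher (Utrn, Sntb2, Dag1 and Dtna) and Dmd was again lower, with 5% and 4.25% of all genes higher and lower. Sgca and Dtnb passed the test at neither age. The tests were edgeR's quasi-likelihood tests on the counts of all 4 groups, with Benjamini-Hochberg adjustment over all tested genes and a threshold of 0.05, and CPM values use TMM-scaled library sizes.

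**Figure D2:**
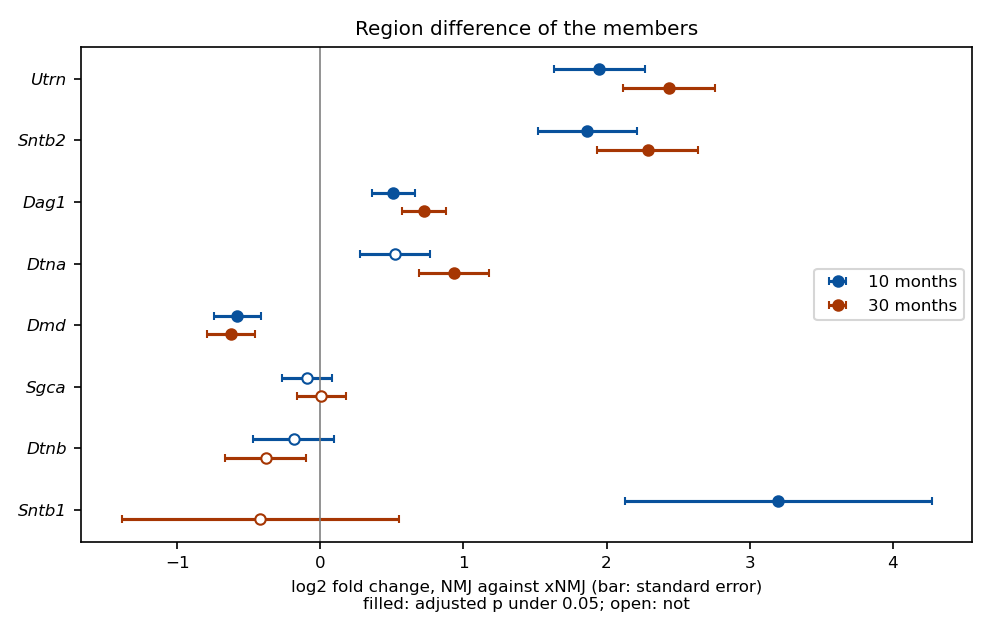
Log2 fold change of each member between NMJ and xNMJ at 10 months (blue) and 30 months (brown), with the standard error (bars). Filled points passed an adjusted p of 0.05 and open points did not; Utrn and Sntb2 lie near 2 at both ages and Dmd near -0.6.

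Among the synaptic members, Utrn, which encodes the junctional relative of dystrophin, was several-fold higher in NMJ at both ages. Utrn ranged from 16.6 to 85.2 CPM (median 24.4) in 10m xNMJ and from 71.5 to 222 CPM (median 131) in 10m NMJ. It ranged from 10.8 to 43.7 CPM (median 21.9) in 30m xNMJ and from 94.9 to 195 CPM (median 133) in 30m NMJ. The groups did not overlap at 30 months, and at 10 months 7 of the 8 NMJ libraries lay above every xNMJ library, the overlap resting on replicate 8 of 10m xNMJ. Non-overlapping, higher CPM in NMJ was found for 2.22% of all tested genes at 10 months and 1.96% at 30 months. Utrn was 3.86-fold higher in NMJ at 10 months (log2 fold change 1.95 ± 0.32 SE, edgeR adjusted p = 4.26e-05) and 5.41-fold higher at 30 months (2.44 ± 0.32, edgeR adjusted p = 2.81e-06). Without replicate 5 of 30m xNMJ, the value for Utrn at 30 months was 2.57 (edgeR adjusted p = 1.72e-06). Over the other settings the log2 difference of Utrn was 1.95 to 2.49 (10 months) and 2.43 to 3.23 (30 months), and mean TPM, which is not rescaled between libraries, was 5.19-fold and 8.64-fold higher in NMJ.

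Sntb2 encodes beta-2-syntrophin, an adaptor known to sit with utrophin at the junction, and the gene (ENSMUSG00000041308) spans chromosome 8, 106935750 to 107019714, plus strand. Sntb2 ranged from 3.71 to 13.7 CPM (median 6.56) in 10m xNMJ and from 17.2 to 42.8 CPM (median 31.7) in 10m NMJ, with no overlap. In 30m xNMJ it ranged from 2.13 to 12.2 CPM (median 5.02) and in 30m NMJ from 10.4 to 50.3 CPM (median 26.2), where 7 of the 8 NMJ libraries lay above every xNMJ library. Sntb2 was 3.65-fold higher in NMJ at 10 months (log2 1.87 ± 0.34 SE, edgeR adjusted p = 0.000247) and 4.88-fold higher at 30 months (2.29 ± 0.35, edgeR adjusted p = 2.94e-05), or 2.24 on the log2 scale without replicate 5 of 30m xNMJ. Over the other settings the log2 difference of Sntb2 was 1.64 to 2.66 (10 months) and 2.16 to 3.12 (30 months), and mean TPM was 6.17-fold and 9.47-fold higher in NMJ. The counts behind the xNMJ values were small, with medians of 29.5 and 24.5 reads per library.

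Dag1, Dtna and Sntb1 encode proteins known at both the junction and the rest of the membrane. Dag1, which encodes the laminin receptor dystroglycan, had a median of 99.9 CPM (74.8 to 117) in 10m xNMJ and 142 CPM (84.8 to 190) in 10m NMJ, and 6 of the 8 NMJ libraries lay above every xNMJ library. At 30 months Dag1 had a median of 84.3 CPM (63.8 to 100) in xNMJ and 132 CPM (114 to 168) in NMJ, with no overlap. Dag1 was thus 1.42-fold higher in NMJ at 10 months (log2 0.51 ± 0.15 SE, edgeR adjusted p = 0.0218) and 1.65-fold higher at 30 months (0.72 ± 0.15, edgeR adjusted p = 0.00147; 0.77 without replicate 5 of 30m xNMJ). The call for Dag1 at 10 months was lost without replicate 5 or replicate 6 of 10m NMJ (edgeR adjusted p up to 0.0641). It was also lost with insert size as a covariate (0.0515), with only the 2 compared groups (0.0667) and with replicate number as a block (0.0739). Over all 9 other settings the adjusted p for Dag1 at 10 months ranged from 0.000144 to 0.0739 and its log2 difference from 0.48 to 0.97, and at 30 months the difference ranged from 0.72 to 1.41.

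Dtna encodes alpha-dystrobrevin, which stabilises acetylcholine receptors in the folds, and the gene (ENSMUSG00000024302) spans chromosome 18, 23415135 to 23659715, plus strand. Its median was 57.4 CPM (42.6 to 82.2) in 10m xNMJ and 78.9 CPM (57.5 to 135) in 10m NMJ. At 30 months its median was 56.0 CPM (20.4 to 92.1) in xNMJ and 105 CPM (69.3 to 193) in NMJ. The groups overlapped at both ages, with 3 of 8 and 5 of 8 NMJ libraries above every xNMJ library. Dtna passed the test at 30 months (log2 0.93 ± 0.24 SE, edgeR adjusted p = 0.00986; 1.04 without replicate 5 of 30m xNMJ) and had a value of 0.52 ± 0.24 at 10 months (edgeR adjusted p = 0.186). On the authors' TPM, without scaling between libraries, Dtna at 10 months was called in all 3 limma fits (0.93 on log2(TPM + 1), limma adjusted p = 0.00878), which relative to the median of all genes on that scale was 0.52. The difference between these age-specific values for Dtna, 0.41 ± 0.34, did not pass its own test (edgeR adjusted p for the interaction of age and region, 0.9999; 0.51 and 0.971 without replicate 5 of 30m xNMJ).

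Sntb1, which encodes beta-1-syntrophin, was close to the detection limit. Counts for Sntb1 ranged from 0 to 6 reads in 10m xNMJ, 2 to 136 in 10m NMJ, 0 to 14 in 30m xNMJ and 1 to 59 in 30m NMJ, where 3 reads in a library correspond to 0.153 to 0.933 CPM. In 7 of 8 libraries of 10m xNMJ, 1 of 8 of 10m NMJ, 6 of 8 of 30m xNMJ and 4 of 8 of 30m NMJ, Sntb1 had 3 reads or fewer. It was higher in NMJ at 10 months (log2 3.20 ± 1.07 SE, edgeR adjusted p = 0.0465), with 5 of 8 NMJ libraries above every xNMJ library. At 30 months the value for Sntb1 was -0.42 ± 0.97 (edgeR adjusted p = 0.864; -0.63 without replicate 5 of 30m xNMJ). The difference between the ages for Sntb1, -3.62 ± 1.43, did not pass its own test (edgeR adjusted p for the interaction, 0.843), so the region differences of the ages were not shown to differ. Over the other settings the log2 difference of Sntb1 at 10 months ran from 0.62 to 3.79. The call at 10 months was kept in 15 of 32 fits that each left out 1 library, with the adjusted p ranging from 0.00822 to 0.102. It was also lost with no filter on low counts (0.0623), insert size as a covariate (0.1) or replicate number as a block (0.0665).

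Among the sarcolemmal members, Dmd fell in NMJ while Sgca did not pass the test. Dmd had a median of 165 CPM (115 to 200) in 10m xNMJ and 110 CPM (80.1 to 128) in 10m NMJ. At 30 months the Dmd medians were 167 CPM (124 to 207) in xNMJ and 102 CPM (77.4 to 180) in NMJ. At each age 6 of the 8 NMJ libraries lay below every xNMJ library (non-overlapping, lower CPM in NMJ was found for 1.19% of all tested genes at 10 months and 0.5% at 30 months), and the highest 30m NMJ value belonged to replicate 5. Dmd was 33.1% lower in NMJ at 10 months (log2 -0.58 ± 0.17 SE, edgeR adjusted p = 0.0175) and 35.2% lower at 30 months (-0.63 ± 0.17, edgeR adjusted p = 0.0114; -0.62 without replicate 5 of 30m xNMJ), and it was called in all 32 fits that left out 1 library.

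The call for Dmd depended on the scale. TMM factors were 0.686 to 1.02 in xNMJ and 1.12 to 1.35 in NMJ, and on log2(TPM + 1) without such scaling (TPM divides reads by transcript length and sums to the same total in every library) the median over all tested genes was 0.41 higher in NMJ at 10 months and 0.53 higher at 30 months. On that scale Dmd was at -0.16 and -0.05 and was not called (limma adjusted p = 0.575 and 0.872), whereas relative to the median of all genes it was at -0.57 and -0.58. In the count fit Dmd was also not called with no filter on low counts (adjusted p = 0.0806 and 0.058). Of all calls on log2(TPM + 1), 92.1% at 10 months and 98.6% at 30 months were higher in NMJ, against 56.3% and 54.1% in the count fit.

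Sgca encodes alpha-sarcoglycan, the striated-muscle sarcoglycan mutated in a form of limb-girdle dystrophy. Its medians were 172 CPM (140 to 263) in 10m xNMJ, 166 CPM (106 to 223) in 10m NMJ, 142 CPM (106 to 214) in 30m xNMJ and 143 CPM (125 to 224) in 30m NMJ. These ranges overlapped at both ages. The log2 difference of Sgca was -0.09 ± 0.17 SE at 10 months and 0.01 ± 0.17 at 30 months (edgeR adjusted p = 0.805 and 0.991), and an interval of 2 SE reached from -0.44 to 0.25 and from -0.34 to 0.35. Without replicate 5 of 30m xNMJ the 30-month value of Sgca was -0.05. Without scaling, on log2(TPM + 1), Sgca was 0.37 and 0.62 higher, the latter passing the test (limma adjusted p = 0.0195), which relative to the median of all genes was -0.04 and 0.09. Dtnb, whose product beta-dystrobrevin is best known outside skeletal muscle, had medians of 24.2 CPM (13.0 to 37.3) in 10m xNMJ, 19.3 CPM (11.8 to 33.3) in 10m NMJ, 29.6 CPM (10.4 to 46.1) in 30m xNMJ and 22.5 CPM (13.8 to 33.3) in 30m NMJ. Its log2 differences were -0.19 ± 0.28 and -0.38 ± 0.28 (edgeR adjusted p = 0.751 and 0.491; -0.51 and 0.254 at 30 months without replicate 5 of 30m xNMJ), with intervals from -0.75 to 0.38 and from -0.95 to 0.18.

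Levels were compared between genes in TPM, the authors' length-corrected unit. Sgca was the highest of the 8 in every group, with medians of 120 TPM in 10m xNMJ, 163 TPM in 10m NMJ, 108 TPM in 30m xNMJ and 155 TPM in 30m NMJ, and did not overlap the next gene in any of them. Dmd came next in both xNMJ groups (34.9 TPM at each age). In NMJ, 4 genes ran together below Sgca with overlapping ranges, namely Dag1 (41.3 and 42.8 TPM), Dtna (38.1 and 64.9 TPM), Utrn (37.1 and 41.6 TPM) and Dmd (30.0 and 35.0 TPM). In xNMJ, Utrn (5.55 and 4.2 TPM) stood below Dtnb (7.63 and 8.43 TPM), with overlapping ranges. Sntb2 rose from medians of 0.755 and 0.692 TPM in xNMJ to 7.24 and 7.43 TPM in NMJ, where it still ranked seventh of the 8. In the count fit the rise was 3.65-fold and 4.88-fold. The TPM values also carry the shift of all genes given above and the shift in the implied length of Sntb2 given below. Sntb1 was lowest in every group, at 0.0175 TPM (xNMJ) and 0.634 TPM (NMJ) at 10 months and 0.0485 TPM (xNMJ) and 0.108 TPM (NMJ) at 30 months.

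**Figure D3:**
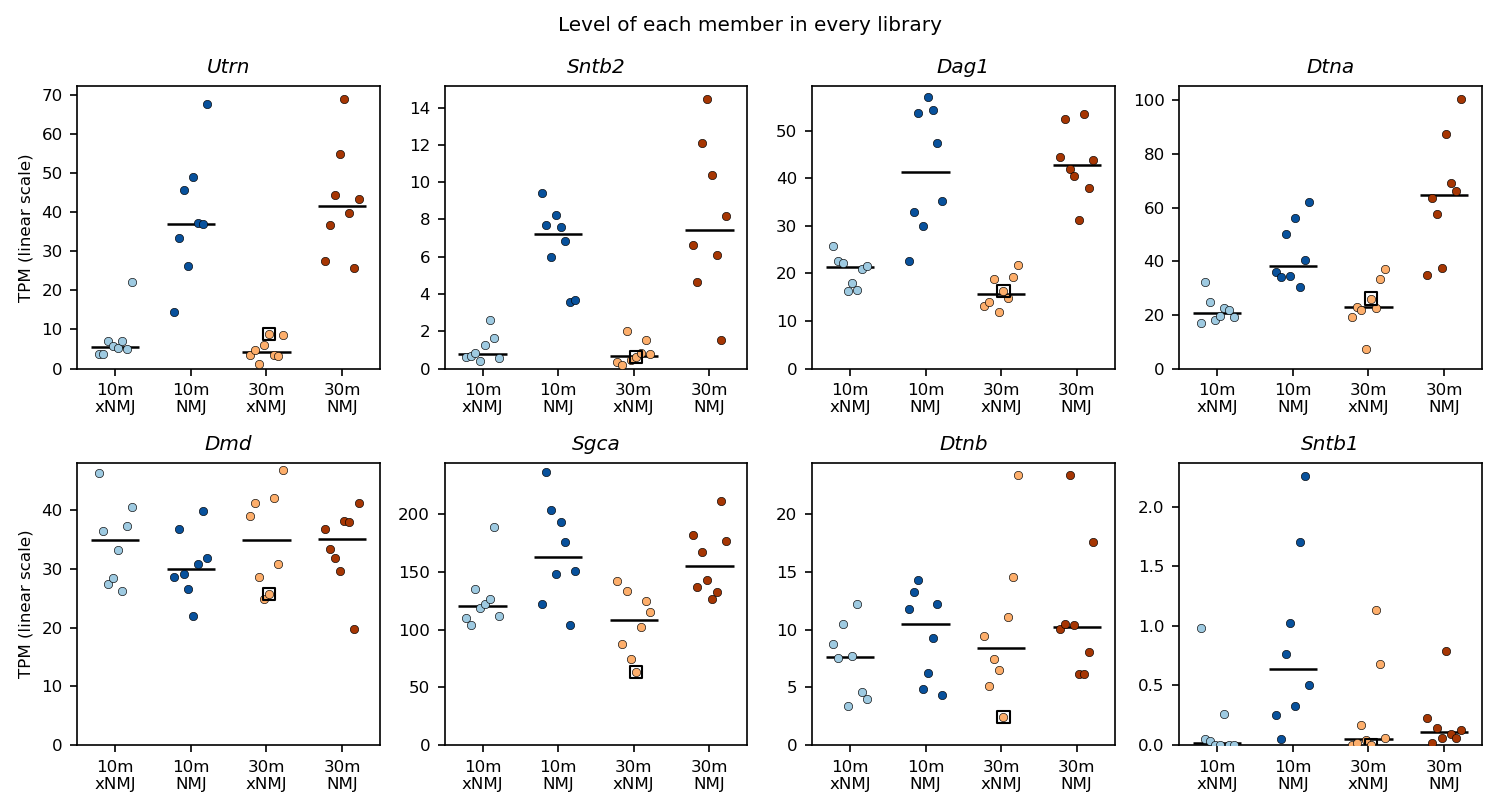
TPM (linear scale, a separate axis for each gene) of the 8 members in each of the 32 libraries (points), with the median of each group of 8 (line) and a square around 30m xNMJ replicate 5. Utrn medians were 5.55 and 4.2 TPM in xNMJ and 37.1 and 41.6 TPM in NMJ, while Dmd medians stayed between 30.0 and 35.0 TPM on this scale.

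Ratios were also taken within each library, where scaling between libraries cancels except for the constant added to TPM, which weighs on genes of low level. The log2 ratio of Utrn to Dmd, from TPM + 1, averaged -2.24 ± 0.78 (SD, n = 8) in 10m xNMJ and 0.23 ± 0.69 in 10m NMJ, and -2.70 ± 0.77 in 30m xNMJ and 0.30 ± 0.43 in 30m NMJ. In linear terms Utrn was at 0.211 and 0.154 of Dmd in xNMJ and at 1.18 and 1.23 of it in NMJ. All 16 xNMJ libraries had less Utrn than Dmd, whereas Utrn exceeded Dmd in 4 of 8 libraries of 10m NMJ and 7 of 8 of 30m NMJ. The ratio differed by 2.48 between the regions at 10 months, with overlapping groups, and by 3.00 at 30 months, with none. Without replicate 5 of 30m xNMJ, which had the highest ratio of its group, the difference at 30 months was 3.18. Against dystroglycan, to which both bind, Dmd averaged 0.72 ± 0.19 and 1.05 ± 0.40 in xNMJ and -0.38 ± 0.56 and -0.36 ± 0.36 in NMJ, while Utrn averaged -1.53 ± 0.78 and -1.65 ± 0.78 in xNMJ and -0.15 ± 0.48 and -0.06 ± 0.61 in NMJ. The Dtna to Dtnb ratio averaged 1.53 and 1.29 in xNMJ and 2.13 and 2.44 in NMJ, with overlap at both ages. Without replicate 5 of 30m xNMJ, the 30m xNMJ means were 1.11 for Dmd to Dag1, -1.77 for Utrn to Dag1 and 1.04 for Dtna to Dtnb. The Sntb2 to Sntb1 ratio averaged 0.80 and 0.54 (0.52 without replicate 5) in xNMJ and 2.08 and 2.77 in NMJ, but its direction at 10 months turned on CPM, with 4.26 in xNMJ and 3.70 in NMJ, so no direction is given for it at that age. These ratios are a description with no test.

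**Figure D4:**
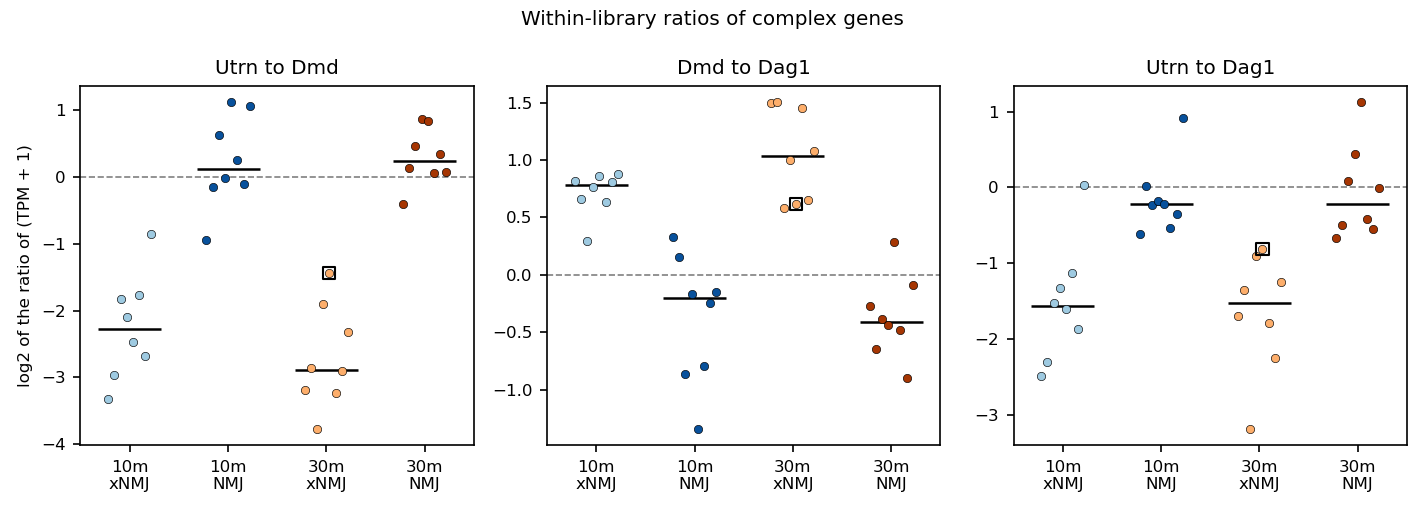
Log2 ratios of (TPM + 1) within each of the 32 libraries (points) for Utrn to Dmd, Dmd to Dag1 and Utrn to Dag1, with the median of each group of 8 (line), a dashed line at equal levels and a square around 30m xNMJ replicate 5. Utrn lies below Dmd in all 16 xNMJ libraries and on both sides of it in NMJ, where the means are 0.23 and 0.30.

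TPM of the long genes depends on how reads were shared among transcripts, so the transcript length implied by counts and TPM was computed for each library. For Dmd its median was 4788 to 5106 bases over the 4 groups, where the longest coding transcript has 14910 bases, and for Utrn 4536 to 5112 bases, where the longest has 12382. Reads that fit several transcripts were split equally among them, so these lengths do not measure isoform use. Sntb2 was the member whose implied length differed most between the regions, with medians of 8838 bases in 10m xNMJ and 6614 in 10m NMJ, and 8368 in 30m xNMJ and 5953 in 30m NMJ, between its transcripts of 3225 and 9945 bases. The 2 regions overlapped in both cases (6439 to 9999 against 5564 to 7832 bases at 10 months). These shifts, -0.42 and -0.49 on the log2 scale, lay below the lower percentile mark of 5769 genes with enough reads (-0.23 and -0.21, the fifth percentile). At 30 months Utrn (0.17) and Dtna (0.18) lay above the upper percentile mark (0.14). At 10 months they were at 0.03 and 0.01, below that mark (0.16). Average insert size, from the labels, also differed, with medians of 93.5 bases (xNMJ) and 117.5 bases (NMJ) at 10 months and 96 bases (xNMJ) and 107 bases (NMJ) at 30 months, and its part in the Sntb2 shift was not tested.

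Comparing 30 with 10 months within each region asked whether the members changed with age. None of the 8 was called in NMJ or xNMJ, and 0% and 0.0429% of all genes tested were called there by edgeR (0 and 6 genes, with 372 and 1322 at an unadjusted p under 0.05; DESeq2 called 0 and 84, none of them a member). By direction, 0.0357% of all genes were called higher and 0.00715% lower in 30m xNMJ. In NMJ, Utrn differed by -0.04 ± 0.30 SE on the log2 scale, Dmd by 0.02 ± 0.17, Dag1 by -0.05 ± 0.15 and Sntb2 by -0.06 ± 0.33. An interval of 2 SE for Utrn in NMJ reached from -0.64 to 0.57 and for Dmd from -0.31 to 0.35. In xNMJ, Utrn was at -0.52 ± 0.31 (edgeR adjusted p = 0.638; -0.66 and 0.469 without replicate 5 of 30m xNMJ) and Sntb2 at -0.48 ± 0.34 (edgeR adjusted p = 0.742; -0.43 and 0.738 without it). The largest value by age was that of the sparse Sntb1 in NMJ, -2.02 ± 0.96, with an edgeR adjusted p of 0.9998. For the interaction of age and region, edgeR called 0 genes (708 at an unadjusted p under 0.05) and DESeq2 called 10, none of them a member. The interaction farthest from 0 among the members was that of Sntb1 (-3.62, given above). The interaction of Utrn was 0.48 ± 0.43 and that of Dmd -0.05 ± 0.24 (0.62 ± 0.44 and -0.05 ± 0.24 without replicate 5 of 30m xNMJ, again not called), so the region differences of the 2 ages were not shown to differ.

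Of 12 further genes of the complex, 9 could be tested, and their median log2 difference was 0.19 at 10 months and 0.21 at 30 months, where the median of all genes was 0.00 and -0.01.

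Drp2 and Sgce, both known from the complex of Schwann cells and other non-muscle tissue, rose in NMJ, the former at both ages and the latter at 30 months. Drp2, a short relative of dystrophin, had medians of 1.02 CPM (0.495 to 5.6) in 10m xNMJ and 8.05 CPM (6.4 to 16.6) in 10m NMJ, and 1.08 CPM (0.446 to 1.44) and 10.6 CPM (3.88 to 15.1) at 30 months, without overlap. Its log2 differences were 2.23 ± 0.45 SE and 3.35 ± 0.48 (edgeR adjusted p = 0.000808 and 9.15e-06; 3.36 at 30 months without replicate 5 of 30m xNMJ). The Schwann cell markers given above, which Drp2 accompanies in peripheral nerve, moved the same way, and their part in its difference was not tested. Sgce, which encodes epsilon-sarcoglycan, passed at 30 months (3.36 ± 0.97, edgeR adjusted p = 0.0219; 3.18 and 0.0368 without replicate 5 of 30m xNMJ) and was at 1.10 ± 0.89 at 10 months (edgeR adjusted p = 0.512). Its counts in xNMJ had medians of 4.5 and 1.5 reads per library.

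The muscle sarcoglycans and membrane partners described here were not called. Sgcb was at 0.19 ± 0.25 and -0.01 ± 0.25, and Sgcd at 1.34 ± 0.57 and 0.55 ± 0.56 (edgeR adjusted p from 0.137 to 0.986). Sspn, which encodes the tetraspanin-like sarcospan, was at 0.37 ± 0.26 and 0.56 ± 0.26, and Cav3, the muscle caveolin, at -0.64 ± 0.34 and -0.73 ± 0.34. Nos1, the neuronal nitric oxide synthase of the complex, was at -1.89 ± 0.68 and -1.66 ± 0.68 (edgeR adjusted p = 0.0686 and 0.132), with medians of 4.99 and 3.42 CPM in xNMJ and 1.61 and 1.82 CPM in NMJ. Without replicate 5 of 30m xNMJ, the 30-month values were 0.22 for Sgcb, 0.66 for Sgcd, 0.72 for Sspn, -0.55 for Cav3 and -1.39 for Nos1, and none was called (edgeR adjusted p from 0.0694 to 0.621). Sgcz, Sntg1 and Sntg2 did not pass the filter on low counts.

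**Figure D5:**
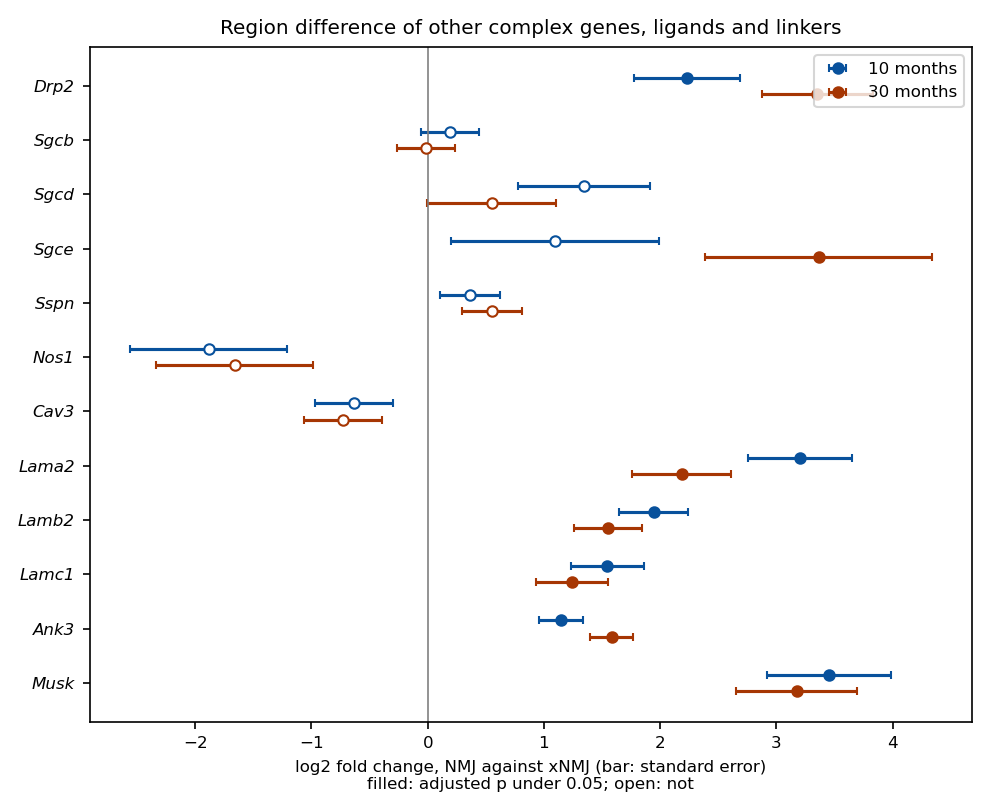
Log2 fold change between NMJ and xNMJ at 10 months (blue) and 30 months (brown), with the standard error (bars), for 7 further complex genes and 5 ligands and linkers; filled points passed an adjusted p of 0.05. Drp2 lies at 2.23 and 3.35, and the 5 ligands and linkers lie between 1.15 and 3.45.

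On the outer side of dystroglycan and among its linkers, 6 of 15 tested genes were higher in NMJ at each age and none was lower. Of all tested genes, 6.5% and 5% were higher and 5.05% and 4.25% lower at 10 and 30 months. The median log2 differences of the 15 genes were 1.15 and 1.24. The higher genes included some laminin chains, with Lama2 at 3.20 ± 0.45 SE and 2.19 ± 0.43, the synaptic chain Lamb2 at 1.95 ± 0.30 and 1.55 ± 0.29, and Lamc1 at 1.54 ± 0.31 and 1.24 ± 0.31 (edgeR adjusted p from 4.06e-06 to 0.00677). The other chains tested were called at neither age in the fit without replicate 5 of 30m xNMJ. There Lama4 was at 1.64 and 0.99, Lama5 at 0.31 and 1.23, and Lamb1 at 1.14 and 1.58 (edgeR adjusted p from 0.051 to 0.686). In the same fit the ligand Agrn was at 1.28 and 1.37 (edgeR adjusted p = 0.373 and 0.374). Ank3, which encodes ankyrin-G, a membrane adaptor of dystrophin and dystroglycan, rose from a median of 110 CPM (84.5 to 134) to 237 CPM (191 to 364) at 10 months and from 81.8 CPM (54.9 to 171) to 304 CPM (205 to 410) at 30 months (1.15 ± 0.19 and 1.58 ± 0.19, edgeR adjusted p = 4.29e-05 and 4.38e-07). Musk, the receptor kinase of the synapse, which is also on the postsynaptic list, was higher too (3.45 ± 0.53 and 3.18 ± 0.52). Without replicate 5 of 30m xNMJ these 5 genes remained called at 30 months, at 2.45 for Lama2, 1.73 for Lamb2, 1.24 for Lamc1, 1.62 for Ank3 and 3.11 for Musk. The fibroblast and Schwann cell lists moved with them, and their part was not tested.

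The enzymes that glycosylate dystroglycan, which makes it able to bind laminin, were not called in either region comparison (0 of 16 tested, against 11.5% and 9.26% of all tested genes, with median differences of -0.01 and -0.2). By unadjusted p, Dpm1 (-0.50 ± 0.22), Dpm3 (1.22 ± 0.54), Dpm2 (1.54 ± 0.75), Ispd (2.04) and Pomt2 (1.39 ± 0.70) at 10 months were among those nearest to the threshold, with edgeR adjusted p from 0.148 to 0.234. No gene of the 3 partner lists was called by age or by the interaction.

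By the Pearson correlation of log2 CPM over the 32 libraries, the 5 genes most like Utrn were Gprc5c (0.909), Chrnd (0.904), Calcrl (0.900), S100b (0.897) and Kcnj12 (0.896), and those most like Dmd were Ube2b (0.785), Epb41 (0.773), Clybl (0.757), Cmya5 (0.755) and Zcchc17 (0.754). The libraries share the region difference, which these values follow. Utrn and Dmd were correlated at -0.592 over all libraries and at 0.209 once each group's mean was removed.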

How the data were processed

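Single-end SMART-Seq v4 libraries were trimmed by the authors with cutadapt 1.9.1 and assigned with kallisto 0.43.1 to protein-coding transcripts of GRCm38 (from the study's methods and the submitters' processing notes), a read on several transcripts being split equally. The deposited counts are whole numbers summed per gene, and the deposited TPM are length-corrected by the authors. Totals ran from 4026648 to 16516788 counts per library, and floors cover counting error only.

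Counts were fitted with edgeR 4.0.16 (TMM, quasi-likelihood, 4 groups in 1 fit) under R 4.3.3, keeping genes with at least 1 CPM in 8 libraries and adjusting over all 13990. DESeq2 1.42.0 and limma 3.58.1 on log2(TPM + 1) or log2(TPM + 0.1), other filters, covariates and leaving out each library were alternatives. The statistics were tested on simulated data first. No libraries of a group agreed within sampling noise, since their counts differed by at least 24.9 in chi-square per gene. Implied transcript length was count over TPM, scaled per library on 1035 single-transcript genes rather than on all genes as first planned, and 441 of these came within 1% of their annotated length. The members, partner lists and marker lists were chosen with earlier results of these data known. Named genes were the members, all other complex genes, up to 6 of each further list with the smallest p in a region comparison and any called by age, and the 5 genes most like Utrn and Dmd. Figures were drawn with matplotlib 3.10.9. Some genes that this rule names are not reported here.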

Additional observations from a re-analysis of the deposited data

Results flagged for a closer look

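In 2 of the 32 member and group combinations looked at, both of them Sntb1, 1 library stood far from the other 7 of its group by Dixon's criterion, which chance meets in about 1 group of 20. In 10m xNMJ, replicate 1 had a log2(CPM + 1) of 1.52 for Sntb1, where the next library had 0.55. In 30m NMJ, replicate 5 had a log2(CPM + 1) of 2.06 for Sntb1, where the next had 0.85.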

How the results depend on the processing

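The region differences of Utrn and Sntb2 at both ages and of Dag1 and Dtna at 30 months kept their direction and call under every other setting run and without each of the 32 libraries. The calls of Dag1 and Sntb1 at 10 months and of Dmd did not, as given above, and the cause was not tested. The members called at 10 months, 5 in the reported fit, were 3 with no filter, with insert size as a covariate and with the replicate block, and 3 to 5 without single libraries. Genes called were 2858, 2798 and 2424 at 10 months and 3462, 3477 and 3132 at 30 months with limma on log2(TPM + 1), log2(TPM + 0.1) and log2(TPM + 1) without a filter, against 1615 and 1295. For age in NMJ (0 genes reported) limma on log2(TPM + 1) called 2, or 1 without a filter. For age in xNMJ (6 reported) 0 were called with only the compared groups, with the block or with any of the 3 limma fits, 2 with insert size, 84 with DESeq2, and 0 to 9 without single libraries (0 without replicate 2, 3 or 5 of 10m xNMJ or replicate 2 of 30m xNMJ, 9 without replicate 5 of 30m xNMJ). For the interaction (0 reported) DESeq2 called 10, and 0 to 1 were called without single libraries.

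The labels do not say whether equal replicate numbers pair libraries. Same-numbered libraries were on average more alike than others, though not in every pair, and the reported fit is unpaired. Deviations from the group means correlated between same-numbered libraries at -0.0016 to 0.19 at 10 months and -0.018 to 0.37 at 30 months. The correlation was above 0.1 in 4 and 1 of 8 pairs, and 4 of 8 libraries at each age correlated best with their own number. Its mean was 0.089 and 0.081 for the same number, against -0.013 and -0.011 for other numbers. With the replicate block, 1829 and 1531 genes were called for the regions, and of the members Dag1 (edgeR adjusted p = 0.0739) and Sntb1 (0.0665) at 10 months were not called. Under the block Utrn by age in NMJ was 0.016 and Sntb1 by region at 30 months 0.038, and with replicate 5 of 30m xNMJ also left out, a setting chosen after seeing the data, Sgca by region at 30 months was -0.045.

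Of the members' differences, only values that had not been called changed sign. On log2(TPM + 1), log2(TPM + 0.1) and log2(TPM + 1) without a filter, the age difference in NMJ was 0.18, 0.19 and 0.18 for Utrn, 0.12, 0.10 and 0.12 for Sntb2, and 0.098, 0.10 and 0.098 for Dag1. The age difference of Dtna in xNMJ was 0.035, 0.030 and 0.035, the interaction of Dmd 0.11, 0.12 and 0.11, and the region difference of Sgca at 10 months 0.37 in each. That of Dtnb was 0.33, 0.37 and 0.33 at 10 months and 0.28, 0.33 and 0.28 at 30 months. With DESeq2 size factors in edgeR, Dtna by age in xNMJ was 0.0065 and Dmd by age in NMJ -0.011, and with DESeq2 0.0069 and -0.010. With only the compared groups, Dtna by age in xNMJ was 0.020 and Sgca by region at 30 months -0.00070. With insert size they were 0.013 and -0.0020, and Dtnb by region at 10 months was 0.0072. Without single libraries, the age difference in NMJ ranged from -0.14 to 0.11 for Utrn, -0.22 to 0.070 for Sntb2, -0.14 to 0.027 for Dag1 and -0.13 to 0.076 for Dmd. That of Dtna in xNMJ ranged from -0.13 to 0.12. The region difference of Sgca ranged from -0.16 to 0.0093 at 10 months and -0.096 to 0.094 at 30 months, and that of Sntb1 at 30 months from -1.43 to 0.42. The interaction ranged from -0.19 to 0.012 for Dmd and from -0.0039 to 0.19 for Sgca.

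The mean log2 ratio of Sntb2 to Sntb1 in 10m xNMJ, 10m NMJ, 30m xNMJ, then 30m NMJ was 2.55, 3.19, 1.81 and 4.88 from TPM + 0.1, and 4.26, 3.70, 3.09 and 5.3 from CPM. Sntb1 had at most 3 reads in 18 of 32 libraries, so depth limits what can be said of it, and a difference of 3 reads in 1 library is 0.153 to 0.933 CPM.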

Other observations

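The library 10m NMJ replicate 8 had an average insert size of 52 bases in its label, where the other 7 libraries of the group had 109 to 131, and it had the highest Utrn of that group (222 CPM). Without it the region difference of Utrn at 10 months was 1.81 on the log2 scale.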
